A study of Gossypium hirsutum with 8 samples.

Results

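The comparison described here is the flooding response of cotton roots minus the flooding response of cotton leaves. It was chosen by sample title and uses all 8 of the 8 arrays of the series. Plants of upland cotton (Gossypium hirsutum, cultivar Sicot 71) were raised in soil in a glasshouse until they had a pair of leaves. The root system was then put under water as far as the hypocotyl, or the plants stayed under normal watering. Whole roots were taken after 4 h of flooding and first leaves after 24 h, each with an unflooded control of the same tissue. The harvest hour of the controls and the number of plants per array are not given in the sources used here. Each of the 4 groups held 2 arrays, labelled as biological replicates. Tissue and hours of flooding change together in this design and cannot be told apart, so "root" below stands for root at 4 h and "leaf" for first leaf at 24 h.

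Waterlogging fills the air spaces of soil with water, in which oxygen diffuses slowly, so that submerged roots soon run short of oxygen while the shoot stays in air. Roots then rely on sucrose breakdown and glycolysis for ATP, with ethylene response factors among the known regulators. The shoot is reached indirectly, through changed supply of water, minerals and hormones from the root. A comparison of the same transcript in both organs separates responses held in common from those found in one organ or turned round between them.

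Signals were log2 values made by RMA, read by probe sets, which are groups of short oligonucleotides that match a transcript. A change is flooded minus control within a tissue, and the difference is the change in root minus the change in leaf, so a positive difference means a more positive change in root. "Called" means a Benjamini-Hochberg adjusted p under 0.05 in limma over all 23977 probe sets tested. Medians of the arrays were 6.15 to 6.17 in root and 5.33 to 5.42 in leaf, with lowest values near 4.0 and 2.5, so levels are set against each other only within a tissue. As an exception, the leaf label was checked across tissues with the 1 photosynthesis gene with a name, and it fitted. RCA1, rubisco activase, read 14.51 to 14.66 on the leaf arrays and 5.22 to 5.89 on the root arrays. No root marker could be matched to a name. Control root replicate 2 had the brightest reporter probe sets of the root arrays. Its 52 reporter probe sets, which match no plant gene and were left out of the test, averaged 5.81 against 5.17 to 5.31 on the other root arrays. The control roots correlated at 0.953 against 0.984 or more in the other pairs, which does not tell which of the 2 arrays differs. With 2 against 2 arrays an exact permutation test cannot go below p = 0.333 (two-sided), so every call rests on the spread that limma pools over groups and probe sets. In bulk tissue a lower share of a cell type and less transcript per cell cannot be told apart.

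The difference was called for 1990 of 23977 probe sets, 8.30%: 1153 (4.81%) were more positive in root and 837 (3.49%) more positive in leaf. For comparison, 2568 probe sets (10.7%) had a called change within root and 1262 (5.26%) within leaf. As shares of all tested, 6.42% rose and 4.29% fell in root, and 2.21% rose and 3.05% fell in leaf. Of the called differences, 1196 (4.99% of all tested) were root-specific, meaning that the root change was also called and the leaf change was not, and 469 (1.96%) were leaf-specific by the same rule. A missing call in one tissue does not show that this tissue did not respond. A further 215 had a called difference with neither tissue called. The order of the tissues depended on the weighting of arrays. With array weights in limma, 1403 probe sets had a called change within root and 3032 within leaf. Without control root replicate 2, 3775 differences were called and the share more positive in root was 43.8%, against 57.9% with all arrays. Without flooded root replicate 1 or 2 the count was 565 and 854, without flooded leaf replicate 1 or 2 it was 477 and 514, without control leaf replicate 1 or 2 it was 1263 and 1197, and without control root replicate 1 it was 5279.

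Called in both tissues were 254 probe sets, which is 9.89% of the root calls and 20.1% of the leaf calls. Of these, 159 (0.663% of those tested) went the same way and 95 (0.396%) went opposite ways with a called difference, here named reversed. The same-way share was 62.6%, beside 53.7% of all tested probe sets whose 2 estimates had the same sign. Each tissue had its own control arrays, and both estimates share the pooled spread. Over all probe sets the root and leaf changes had a Pearson r of 0.055, given as a description of 23977 probe sets that share arrays. The reversed and same-way counts both fell to 0 without either flooded leaf array, since the leaf then had 0 or 1 calls in limma. The reversed count was 447 and 378 without control root replicate 1 and 2, 14 and 21 without flooded root replicate 1 and 2, and 42 and 16 without control leaf replicate 1 and 2. The same-way count was 724 and 431, 40 and 39, and 55 and 41 in the same order.

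**Figure D1:**
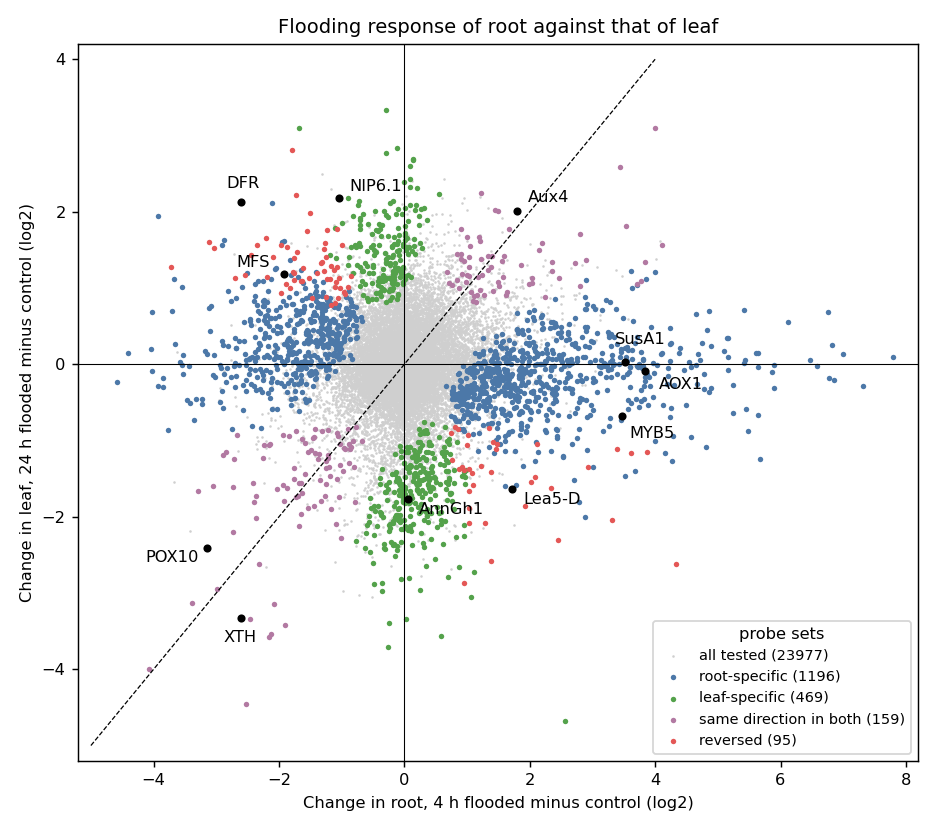
Each point is a probe set, with its change in root after 4 h of flooding on the x axis and its change in leaf after 24 h on the y axis (both log2, means of 2 arrays), and the dashed line marks equal changes. The 1196 root-specific probe sets lie along the x axis, the 469 leaf-specific ones along the y axis, the 95 reversed ones at upper left and lower right, and the 159 that went the same way near the dashed line.

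Among genes with a name, 6 were reversed: DFR, H6L, MFS, cdn1 and GLU fell in root and rose in leaf, and Lea5-D rose in root and fell in leaf. DFR (LOC107957957) encodes dihydroflavonol reductase, which feeds the anthocyanin and condensed tannin branches of flavonoid synthesis. Its signal was 7.42 and 7.51 in flooded root against 10.44 and 9.70 in control root, and 9.76 and 9.59 in flooded leaf against 7.78 and 7.32 in control leaf. The flooded and control arrays did not overlap in either tissue, and the order was turned round. Opposite non-overlap of this kind was found in 2966 probe sets, 12.37% of all tested, so it does not set a gene apart by itself. The changes were -2.61 in root (SE 0.28, adjusted p = 0.0015) and 2.13 in leaf (SE 0.28, adjusted p = 0.012), and their difference was -4.73 (SE 0.40, adjusted p = 0.0013). This was the most negative difference among the named genes, with a 95% interval of -5.66 to -3.81.

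A second gene of plant defence chemistry turned the same way. cdn1 (LOC107903500) encodes delta-cadinene synthase, which makes the first dedicated compound on the way to gossypol, the terpenoid of cotton glands. It read 10.60 and 10.13 in flooded root against 11.52 and 11.54 in control root, and 4.99 and 5.60 in flooded leaf against 4.06 and 3.95 in control leaf. The leaf signals were dim: 3 of the 4 lay below the reporter bound (the 95th percentile of reporter signals on the same array), and the rise in leaf may be understated there. The difference was -2.46 (SE 0.36, adjusted p = 0.009). It was not called when signals were held at a floor set from the reporter probe sets, where 1 floor per array gave adjusted p = 0.22 and 1 floor per tissue gave adjusted p = 0.074.

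MFS (LOC107906544), named for the major facilitator family of membrane transporters, had the smallest adjusted p of any named gene. Its 4 root signals were 9.01 and 8.96 flooded and 11 and 10.82 control, and its leaf signals were 12.99 and 13.04 flooded and 11.93 and 11.73 control. The arrays of each group lay close together and the groups did not overlap, and the changes were -1.92 in root and 1.18 in leaf (difference -3.11, SE 0.24, adjusted p = 0.001). H6L (LOC107908860) read 8.39 and 8.48 against 10.55 and 10.71 in root, and 7.77 and 8.46 against 7.13 and 6.82 in leaf, without overlap in either tissue (difference -3.34, SE 0.36, adjusted p = 0.0031). GLU (LOC107932771) read 10.96 and 11.06 against 12.12 and 12.11 in root, and 7.53 and 7.92 against 6.65 and 6.79 in leaf (difference -2.11, SE 0.27, adjusted p = 0.0058). No role is given here for H6L and GLU.

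Lea5-D (LOC107916177) went the other way. It belongs to the late embryogenesis abundant proteins, hydrophilic proteins known from drying seeds and water-stressed tissue. It read 10.93 and 11.09 in flooded root against 9.09 and 9.49 in control root, and 6.18 and 5.96 in flooded leaf against 7.38 and 8.04 in control leaf. The changes of 1.72 and -1.64 were close in size and opposite in sign (difference 3.36, SE 0.37, adjusted p = 0.0035). Lea14-A, another gene of this name group, named after its value was seen, changed by -0.44 in root (adjusted p = 0.45) and fell by 2.12 in leaf (difference 1.68, SE 0.41, adjusted p = 0.049).

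The difference of all 6 reversed genes was called in each of the 8 fits that left out 1 array, with values of -5.11 to -4.36 for DFR and 3.03 to 3.69 for Lea5-D. Their calls in the separate tissues were less stable. The leaf call of each of the 6 was lost without either flooded leaf array and without control leaf replicate 2, those of H6L, cdn1 and GLU also without a single flooded root array or control leaf replicate 1, and that of Lea5-D also without a single flooded root array. The root calls of cdn1 and GLU were lost without either flooded root array and that of Lea5-D without flooded root replicate 2. In all of these fits the 6 genes kept opposite signs of change in the tissues. With 1 term per replicate number within each tissue, a leaf or root call was lost for MFS, cdn1, GLU, H6L and Lea5-D, while DFR was called in both tissues. With 1 floor per tissue MFS alone of the 6 was called in opposite directions. H6L also lost a tissue call under quantile normalization over all 8 arrays and under a limma fit with variance trend. The replicate number as a block removed a tissue call of H6L and cdn1. Array weights and 1 weight per group removed a tissue call of cdn1 and GLU, and 1 floor per array did so for H6L, cdn1 and GLU.

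**Figure D2:**
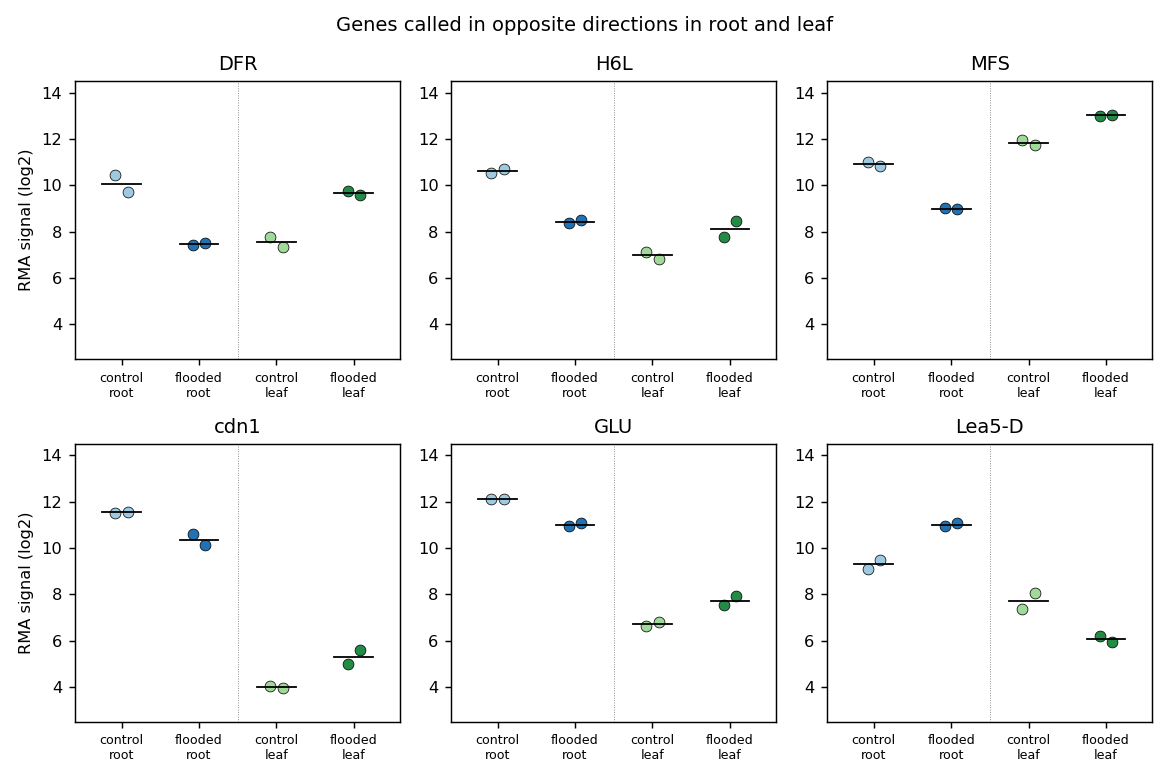
RMA signal (log2, y axis) on each of the 8 arrays for the 6 named genes called in opposite directions in root and leaf; points are arrays and bars are means of 2. DFR falls from 10.44 and 9.70 to 7.42 and 7.51 in root and rises from 7.78 and 7.32 to 9.76 and 9.59 in leaf, and Lea5-D shows the opposite turn.

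The full reversed class held 95 probe sets, of which 58 fell in root and rose in leaf and 37 rose in root and fell in leaf. The first 58 had median changes of -1.51 in root and 1.22 in leaf, and the other 37 had medians of 1.35 and -1.38. Only 6 carried a gene name, 3 more a locus number alone, and 86 had no single gene in the probe table. In 2 of the 95 all 4 leaf signals lay under the reporter bound, and in 0 all 4 root signals did. The shares were 47.7% and 43.9% of all tested probe sets, and 21.3% and 5.58% of those with a called difference. The most negative difference in the class belonged to Ghi.10562.1.S1_at, a probe set without a gene name. It read 6.03 and 6.46 in flooded root against 10.22 and 9.71 in control root, and 8.23 and 8.35 in flooded leaf against 7.19 and 6.85 in control leaf (difference -5.0, SE 0.35, adjusted p = 0.0008).

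The 4 largest positive differences of named genes, those of MYB5, AOX1, SusA1 and ERF7, came from transcripts that rose in root and read within the range of the reporter probe sets in leaf. MYB5 (LOC107912305), of the MYB family of transcription factors, read 9.50 and 8.98 in flooded root against 6.18 and 5.37 in control root, and between 3.96 and 4.93 on the leaf arrays. The difference was 4.15 (SE 0.45, adjusted p = 0.0031), made of a root change of 3.47 and a leaf change of -0.68 (adjusted p = 0.29). AOX1 (LOC107939301), the alternative oxidase of mitochondria, read 11.35 and 10.24 against 6.96 and 6.97 in root and between 4.11 and 4.46 in leaf (difference 3.92, SE 0.48, adjusted p = 0.0052). SusA1 (LOC107910106), a sucrose synthase, read 9.04 and 9.20 against 5.04 and 6.15 in root and between 3.51 and 3.72 in leaf (difference 3.49, SE 0.47, adjusted p = 0.0072). ERF7 (LOC107941184), an ethylene response factor, read 10.15 and 9.16 against 6.68 and 6.05 in root and between 3.63 and 3.86 in leaf (difference 3.36, SE 0.49, adjusted p = 0.0089). In each of these 4 genes the flooded root arrays stood above both control root arrays, while all 4 leaf signals lay under the reporter bound of their array, and a fall in leaf from that level may not be measurable.

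The other positive differences that began in root were ASP3 (2.68, SE 0.50), GOX (1.83, SE 0.30) and Mn-SOD (1.73, SE 0.32), the superoxide dismutase of the mitochondrial matrix. ASP3 read 11.51 and 11.20 against 8.60 and 8.14 in root, and 5.98 and 5.67 against 5.0 and 6.04 in leaf, where the groups overlapped. GOX read 12.38 and 12.31 against 10.60 and 10.34 in root, and 9.56 and 9.46 against 9.22 and 9.71 in leaf, again with overlap. Mn-SOD read 7.53 and 7.86 against 5.98 and 6.44 in root and lay under the reporter bound on all 4 leaf arrays. A second probe set of Mn-SOD had a difference of 0.32 (adjusted p = 0.71), and a second one of SusA1 had 1.49 (adjusted p = 0.058), so probe sets of a gene did not always agree. MYB5, AOX1 and SusA1 were called in all 8 fits that left out an array. ERF7 was lost only without flooded leaf replicate 2 (3.24), ASP3 and GOX without any 1 flooded array, and Mn-SOD without any 1 flooded array or control leaf replicate 2. With 1 floor per tissue the ERF7 call was also lost, and with 1 floor per array that of Mn-SOD.

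Over the whole table, 723 root-specific probe sets rose in root and 473 fell. Of the 723 rises, 272 (37.6%) had all 4 leaf signals under the reporter bound, against 47.7% of all tested probe sets. Many of the latter were dim in both tissues and had no call. The share was 21.6% among the 473 root-specific falls and 21.3% among all called differences, so dim leaf signals were more frequent among the rises. The median root change of the 723 was 1.98 and their median leaf change -0.17. The largest differences of all belonged to probe sets without a gene name. GhiAffx.5828.1.S1_s_at read 13.78 and 13.75 in flooded root against 7.04 and 4.92 in control root, but was as bright in unflooded leaf (11.85 and 11.37) as in flooded leaf (11.61 and 11.79). Its difference was 7.70 (SE 0.83, adjusted p = 0.0031), with values of 6.64 to 8.76 when 1 array was left out. GhiAffx.64116.1.S1_at read 12.93 and 12.80 in flooded root against 5.88 and 5.22 in control root, and between 3.47 and 4.01 on all leaf arrays (difference 7.60, SE 0.36, adjusted p = 0.00023). Both were bright in flooded root, while in leaf 1 was bright and the other lay under the reporter bound.

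The 473 root-specific falls had median changes of -1.66 in root and 0.30 in leaf. The most negative difference of all tested probe sets was here, in GhiAffx.42527.1.A1_s_at, which has no gene name. It read 5.50 and 5.99 in flooded root against 9.83 and 9.50 in control root, and 8.10 and 7.15 in flooded leaf against 5.06 and 6.31 in control leaf (difference -5.87, SE 0.65, adjusted p = 0.0035). Its leaf arrays did not overlap either, but the leaf change of 1.94 was not called (adjusted p = 0.057). All 4 of these unnamed probe sets at the ends, Ghi.10562.1.S1_at included, were called in each fit that left out 1 array.

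Positive differences also arose where the leaf fell and the root did not pass the test. AnnGh1 (LOC107905123), an annexin that binds membranes in the presence of calcium, read 9.77 and 10.59 in flooded leaf against 11.97 and 11.92 in control leaf, and stayed between 13.07 and 13.23 on the 4 root arrays (difference 1.82, SE 0.38, adjusted p = 0.029). RPS4 and RPS16, named for proteins of the small ribosomal subunit, fell by 1.82 and 1.73 in leaf and changed by 0.17 and -0.04 in root. RPS16 read 6.25 and 7.04 in flooded leaf against 8.31 and 8.43 in control leaf, and between 9.79 and 9.95 in root (difference 1.69, SE 0.37, adjusted p = 0.035). RPS4 read 6.57 and 6.89 against 8.62 and 8.47 in leaf, and 10.23 and 10.04 against 10.40 and 9.53 in root, where the groups overlapped (difference 1.98, SE 0.41, adjusted p = 0.029). LEGB, a legumin storage protein of seeds, read 5.86 and 6.12 against 8.62 and 7.60 in leaf and 7.32 and 6.84 against 6.77 and 7.23 in root (difference 2.21, SE 0.50, adjusted p = 0.039). A second LEGB probe set had a difference of 0.21 (adjusted p = 0.81).

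NIP6.1, a membrane channel of the aquaporin family (LOC107906429), led the genes that rose in leaf without a called root change. It read 7.98 and 7.68 in flooded leaf against 5.45 and 5.84 in control leaf, and 7.35 and 7.62 in flooded root against 9.18 and 7.88 in control root. The root arrays did not overlap either, but the control roots lay far apart and the root change of -1.04 was not called (adjusted p = 0.17). The difference was -3.22 (SE 0.56, adjusted p = 0.016), and it was -3.87 and -2.57 without control root replicate 2 and 1. Ssh2 read 8.45 and 8.63 in flooded leaf against 6.58 and 6.95 in control leaf, and lay under the reporter bound on all 4 root arrays (difference -2.16, SE 0.39, adjusted p = 0.018). Of the 6 genes whose call came from the leaf, all lost the difference without flooded root replicate 1, flooded root replicate 2 and flooded leaf replicate 1. Without flooded leaf replicate 2 the losses were RPS4, LEGB, NIP6.1 and Ssh2, without control leaf replicate 1 all 6, and without control leaf replicate 2 AnnGh1, RPS16 and RPS4. With 1 floor per tissue all of these but Ssh2 were lost. Of the 12 settings that kept every array, the difference was called in 5 for LEGB, 6 for RPS16, 8 for AnnGh1, 11 for RPS4 and NIP6.1, and 12 for Ssh2. LEGB was lost under both quantile normalizations, and LEGB, AnnGh1 and RPS16 with array weights.

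**Figure D3:**
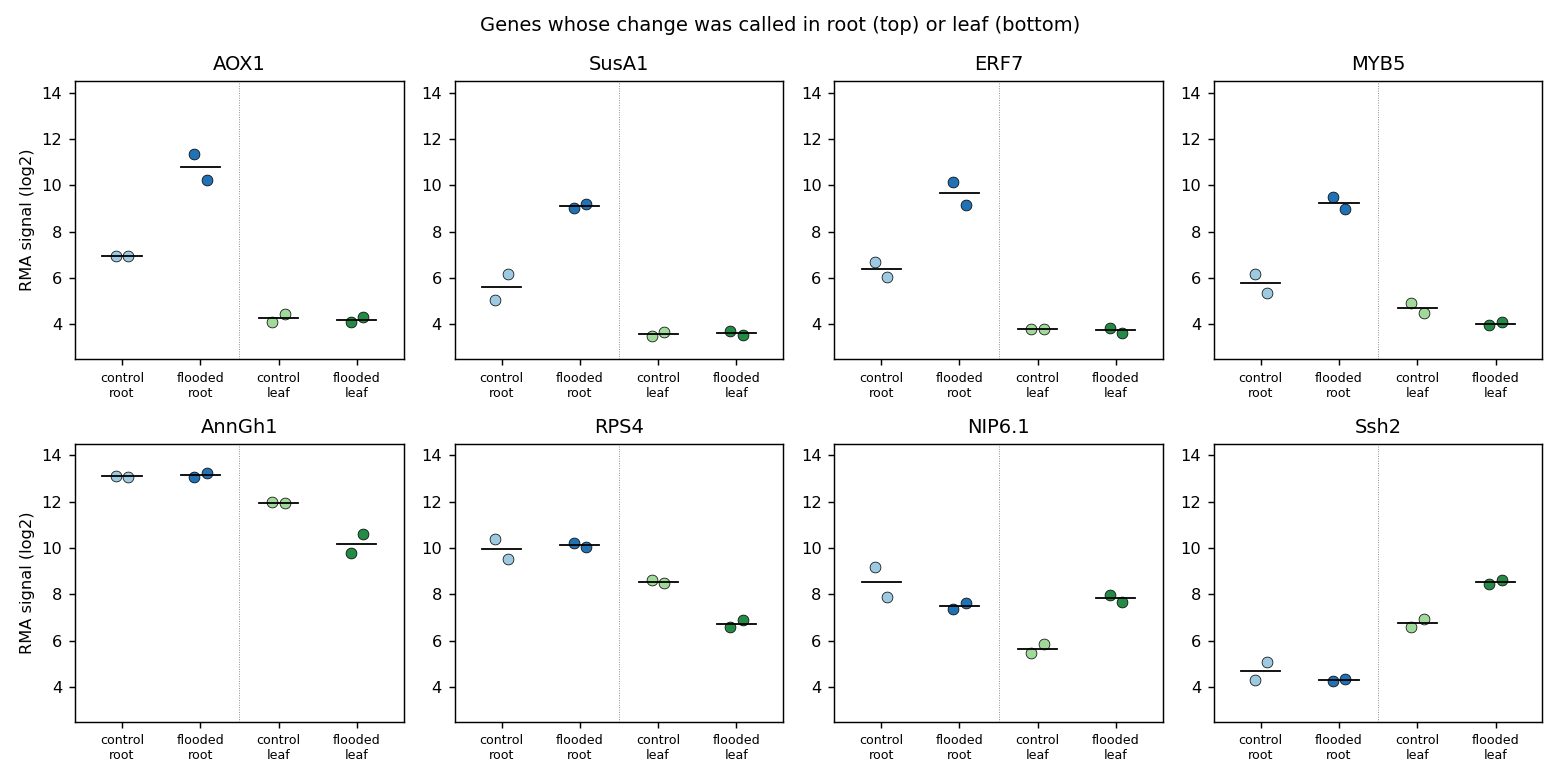
RMA signal (log2, y axis) on each array for 4 genes whose change was called in root (top row) and 4 whose change was called in leaf (bottom row); points are arrays and bars are means of 2. AOX1, SusA1, ERF7 and MYB5 stay under 5 on all leaf arrays, while AnnGh1 stays between 13.07 and 13.23 in root and NIP6.1 and Ssh2 rise in leaf.

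Several of the negative differences that began in root were in genes of the cell wall. The wall of growing plant cells is a network of cellulose, matrix polysaccharides and arabinogalactan proteins, loosened by expansins and cut by enzymes such as pectate lyases. Of 38 cell wall probe sets, 8 had a negative difference and 0 a positive one, which is 21.1% called against 8.30% of all tested and 13.6% of the 324 with a gene name. The median difference of the list was -0.35, beside 0.02 over all tested and -0.19 over those with a name. In root 16 of the 38 fell and 0 rose, and in leaf 5 fell and 1 rose. Of the 324 with a gene name, 56 fell and 31 rose in root, and 21 fell and 16 rose in leaf. Over all tested, 4.29% fell and 6.42% rose in root, and 3.05% fell and 2.21% rose in leaf. The list was chosen with its root response already known, so its direction in root is no independent evidence. The 8 probe sets belonged to 6 genes. Pel (LOC107949717), a pectate lyase, had a tight difference of -2.40 (SE 0.24, adjusted p = 0.0022), with 5.46 and 5.66 in flooded root against 8.23 and 8.28 in control root and all leaf signals between 3.96 and 4.32, under the reporter bound. Its second probe set changed in the other tissue: it rose by 0.88 in leaf (adjusted p = 0.027) and changed by -0.19 in root (difference -1.08, adjusted p = 0.033).

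CelA1 (LOC107909647), a cellulose synthase, read 8.77 and 9.25 in flooded root against 10.36 and 10.86 in control root, and 7.79 and 8.21 against 7.77 and 6.77 in leaf (difference -2.33, SE 0.52, adjusted p = 0.037). EXPA3D, an expansin, read 6.37 and 6.19 against 7.90 and 9.16 in root, and 10.06 and 9.45 against 8.67 and 9.68 in leaf, where the groups overlapped (difference -2.82, SE 0.67, adjusted p = 0.045). FLA6, a fasciclin-like arabinogalactan protein, was called in both of its probe sets (-2.15, SE 0.34, and -1.90), with leaf changes of 0.76 and 0.57 that were not called. E6, known as an abundant transcript of cotton fibre, had a difference of -2.02 (SE 0.45, adjusted p = 0.036), and FLA13, named after its value was seen, had -2.11 (adjusted p = 0.046). UGD2, an enzyme that makes UDP-glucuronic acid for wall polysaccharides and was not in the list, read 7.24 and 7.44 against 8.97 and 9.25 in root and 9.73 and 9.95 against 9.61 and 9.14 in leaf (difference -2.23, SE 0.32, adjusted p = 0.0081). Of Pel, CelA1, EXPA3D, FLA6, E6 and UGD2, Pel alone was called in all 8 fits that left out an array. With every array kept, EXPA3D, CelA1 and E6 were each called in 7 of 12 settings, EXPA3D being lost under both quantile normalizations and CelA1 and E6 with array weights. The list had 1 negative call without flooded root replicate 1 or flooded leaf replicate 2, 2 without flooded root replicate 2 or flooded leaf replicate 1, 4 and 3 without control leaf replicate 1 and 2, and 13 and 12 without control root replicate 1 and 2. Positive calls numbered 2 without control leaf replicate 1 and 1 without control root replicate 1, and with 1 floor per tissue 2 probe sets had a negative call.

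Other parts of the cell wall list fell in both tissues. Among named genes, 9 were called in the same direction in root and leaf, and none of these had a called difference. Falls in both were found in POX10, XTH, FLA, fla-12, ManA2, EF1A7 and BTub4, and rises in both in Aux4 and CHS3. POX10 (LOC107937645), a class III peroxidase, read 9.07 and 9.94 against 12.87 and 12.44 in root and 5.39 and 5.91 against 8.24 and 7.88 in leaf (changes -3.15 and -2.41). XTH, a xyloglucan endotransglucosylase that rejoins wall polymers, fell by 2.60 in root and 3.33 in leaf, and FLA, another arabinogalactan protein, fell by 1.91 and 3.41. Aux4 read 10.09 and 9.60 against 8.40 and 7.68 in root and 9.97 and 9.97 against 8.08 and 7.85 in leaf, changes of 1.80 and 2.01. A second probe set of Aux4 rose by 1.68 and 1.77, while its other two were not called in either tissue.

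A difference that was not called does not show equal responses, and the intervals show what could be told. For EF1A7, a translation elongation factor, the difference was 0.05 with a 95% interval of -0.48 to 0.57, and for ManA2 it was 0.01 (-0.64 to 0.67). For BTub4, a beta-tubulin, it was 0.34 (-0.18 to 0.86), and for CHS3, a chalcone synthase, -0.16 (-0.90 to 0.59). The intervals reached past 1 log2 unit for Aux4 (-0.21, -1.13 to 0.72), POX10 (-1.85 to 0.38), fla-12 (-1.30 to 0.57), FLA (-0.02 to 3.04) and XTH (-1.23 to 2.70), so that a difference of 2-fold or more lay within them. The FLA difference was 2.30 and called without control leaf replicate 1. Over all tested, 144 probe sets went the same way with no called difference. For 49 of these the entire 95% interval lay within 1 log2 unit of 0, and for 95 it reached further. The other 15 of the 159 had a called difference in size: 9 rose in both tissues and rose more in root (medians 3.54 in root and 1.33 in leaf), and 6 fell in both. Leaf calls of the 9 named genes that went the same way were lost without any 1 flooded leaf array. Their root calls, except that of POX10, were also lost in at least 1 fit that left out an array. With every array kept, array weights removed a tissue call of XTH, FLA, ManA2, CHS3, EF1A7 and BTub4. With 1 floor per tissue a tissue call was lost for XTH, POX10, FLA, Aux4, fla-12 and CHS3. A replicate block within each tissue did so for fla-12, ManA2, CHS3, EF1A7 and BTub4.

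**Figure D4:**
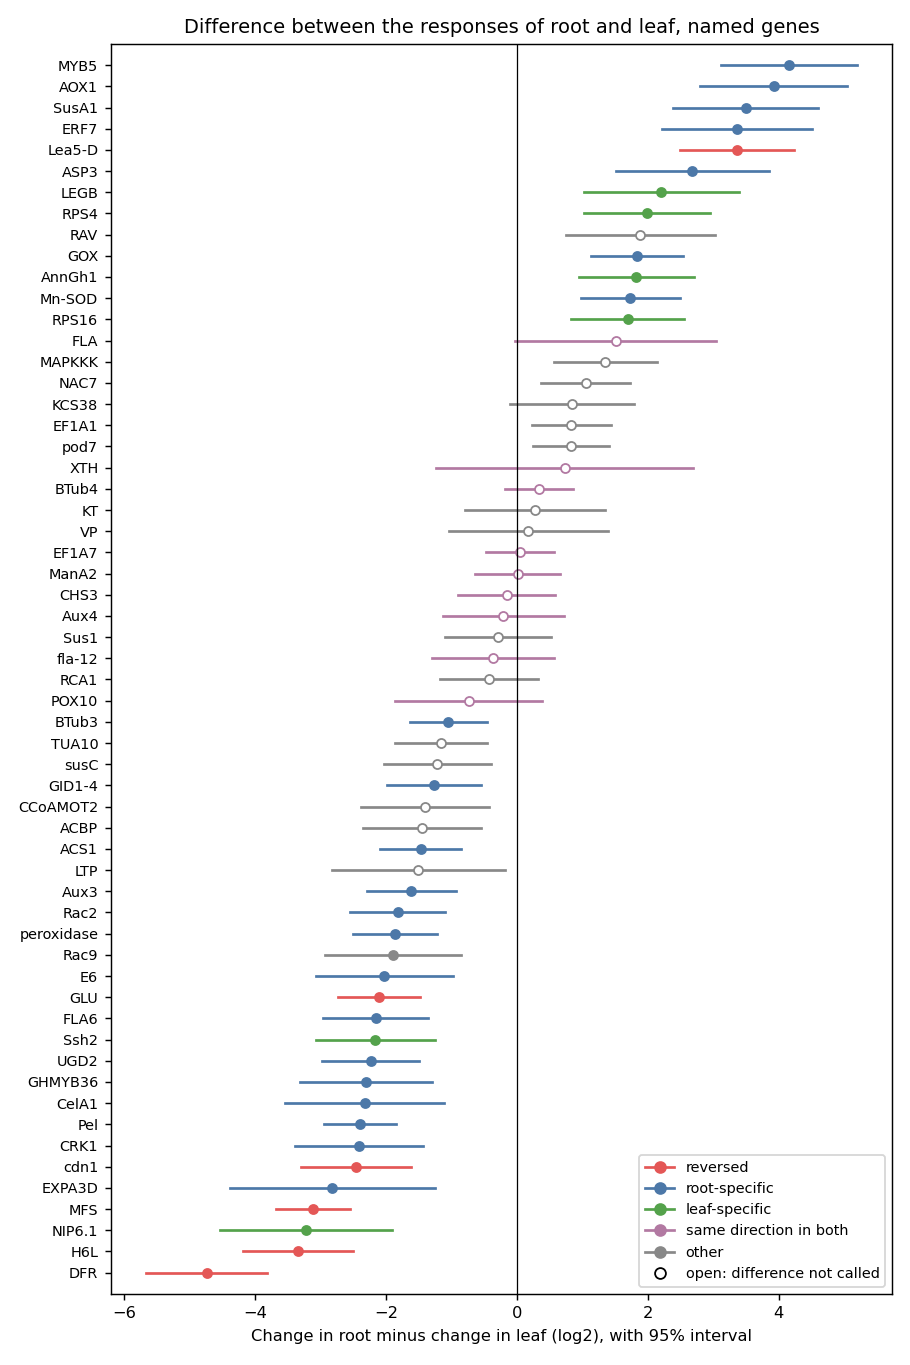
Change in root minus change in leaf (log2, x axis) for each named gene, with its 95% interval from limma; filled points have a called difference and colours give the class. DFR at -4.73 and MYB5 at 4.15 form the ends, and the genes that went the same way in both tissues straddle 0.

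The remaining lists held few called differences. Of 17 ethylene probe sets, 1 was positive (ERF7) and 1 negative, ACS1 (-1.47, SE 0.27), whose symbol has more than 1 use so that what it encodes is uncertain. RAV, of the AP2 and B3 family of transcription factors, had 1.88 (adjusted p = 0.058). Of 24 oxidative stress probe sets, Mn-SOD was positive and a peroxidase (LOC107905931) negative (-1.86, SE 0.27, adjusted p = 0.009), and pod7 stood at 0.83 (adjusted p = 0.088). Of 32 transcription factor probe sets, MYB5 was positive and GHMYB36 negative (-2.30, SE 0.43), and NAC7 stood at 1.05 (adjusted p = 0.071). Of 13 probe sets for hormones other than ethylene, 2 were positive, both of late embryogenesis abundant genes, and 2 negative, Aux3 (-1.61, SE 0.29) and the gibberellin receptor GID1-4 (-1.27, SE 0.31). The GID1-4 call held in 4 of the 12 settings that kept every array and in 2 of the 8 that left one out, and that of Aux3 in 11 and 4. These shares of 6.25% to 30.8% compare with 8.30% of all tested and 13.6% of those with a gene name.

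Of 8 ribosome and translation probe sets, 2 were positive (RPS4 and RPS16) and 0 negative. This is 25% called, against 8.30% of all tested and 13.6% of those with a gene name. The median difference was 0.95, against 0.02 over all tested and -0.19 over those with a name. EF1A1 stood at 0.83 (adjusted p = 0.099). In leaf 6 of the 8 fell, and in root 1 did, where 3.05% and 4.29% of all tested probe sets fell. Of the 324 with a gene name, 21 fell in leaf and 56 in root. Both positive calls were lost without flooded root replicate 1 or 2, flooded leaf replicate 1 or control leaf replicate 1 or 2, 1 was left without flooded leaf replicate 2, and 6 were called without control root replicate 1. Of 15 cytoskeleton probe sets, AnnGh1 was positive and the beta-tubulin BTub3 negative (-1.05, SE 0.25, adjusted p = 0.046), 13.3% called. The BTub3 call held in only 2 of the 12 settings that kept every array, being lost under both quantile normalizations among others, and in 2 of the 8 that left one out. The alpha-tubulin TUA10 stood at -1.16 (adjusted p = 0.059). Of 23 signalling probe sets, the small GTPases Rac2 (-1.82, SE 0.31) and Rac9 (-1.89, SE 0.44) were negative, 8.70% called, and MAPKKK stood at 1.35 (adjusted p = 0.051). Rac9 was not called in either tissue alone (-0.90 and 0.99), and its difference was called in 4 of 11 settings that kept every array and tested it. Of 9 phenylpropanoid and terpenoid probe sets, DFR and cdn1 were negative (22.2% called), CHS3 went the same way in both tissues, and the lignin enzyme CCoAMOT2 stood at -1.40 (adjusted p = 0.086).

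Of 3 water and ion transport probe sets NIP6.1 was negative, while the potassium transporter symbol KT stood at 0.28 (1.64 in root and 1.36 in leaf, the latter with adjusted p = 0.058) and the proton pyrophosphatase VP at 0.17. Of 4 sucrose probe sets 1 of SusA1 was positive, and susC and Sus1 stood at -1.21 (adjusted p = 0.079) and -0.29 (adjusted p = 0.73). Sus1 was bright in root whether flooded (13.82 and 13.75) or not (13.85 and 13.87). None of the 15 lipid probe sets was called. The shares called in the transport, sucrose and lipid lists were 33.3%, 25% and 0%. They compare with 8.30% of all tested and 13.6% of those with a gene name, and lists this short do not set them apart. ACBP, LTP and KCS38 had differences of -1.45, -1.51 and 0.84 (adjusted p = 0.062, 0.16 and 0.28). RCA1, the photosynthesis gene, had a difference of -0.43 (adjusted p = 0.53), and low-oxygen genes were represented by AOX1 alone. CRK1, in no list, had a difference of -2.41 (SE 0.42, adjusted p = 0.016).

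**Figure D5:**
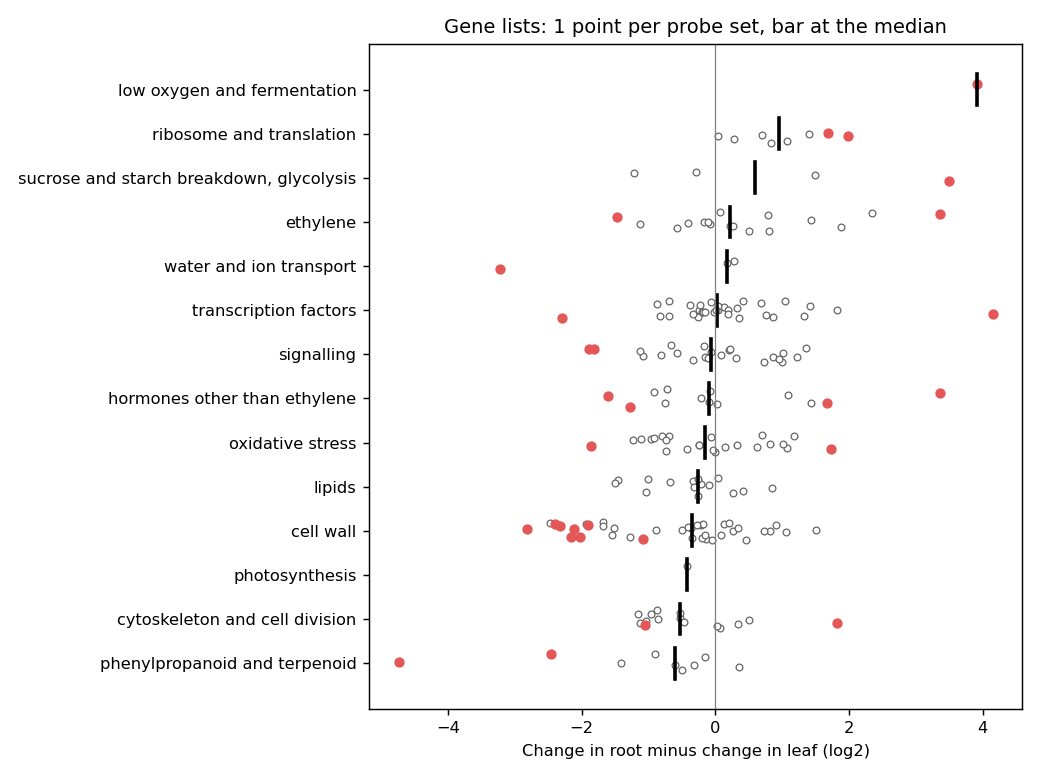
Change in root minus change in leaf (log2, x axis) for every probe set of each gene list; filled points have a called difference, open points do not, and vertical bars mark the median of each list. The cell wall list shows 8 called differences, all negative, and the ribosome and translation list lies above 0.

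Of the 34 named genes with a called difference, 10 were called in all 8 fits that left out 1 array: the 6 reversed genes, MYB5, AOX1, SusA1 and Pel. Leaving out flooded root replicate 1 or 2 removed 23 and 20 of the 34 calls, flooded leaf replicate 1 or 2 removed 21 and 22, control leaf replicate 1 or 2 removed 13 and 10, and control root replicate 1 or 2 removed 0 each. The SD within a pair of arrays, as a root mean square over probe sets, was larger in the controls (0.477 for root, 0.315 for leaf) than in the flooded samples (0.208 for root, 0.193 for leaf). Leaving out an array also takes the spread of its pair out of the pooled estimate, so these losses mix an array's values with that estimate. The difference kept its sign in every such fit for each of the 34 genes. These 34 were picked by size of difference, class or list, and do not cover every gene with a name and a called difference. Of the 324 probe sets with a gene name, 44 had a called difference, 15 positive and 29 negative. Over all tested, 1153 were positive and 837 negative.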

How the data were processed

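Transcripts of cotton roots and leaves were measured on 8 Affymetrix cotton arrays. The authors deposited log2 signals for 24132 probe sets; the tools listed per the submitters' processing notes are limma and RMA, without version or role. RMA in general compresses dim signals, so folds of dim genes may be understated. The 103 control and 52 reporter probe sets were left out and 23977 were tested as deposited, with no filter. A mean per group was fitted with limma 3.58.1 in R 4.3.3 (residual degrees of freedom 4, prior 3.48), and the root change minus the leaf change was tested with Benjamini-Hochberg adjustment at 0.05. The p-values reflect only how far arrays of the same group lie apart, as pooled over groups and probe sets. The fit was tested on simulated data (10 draws, 23977 probe sets): 52.4% of differences of 2 log2 units and 1.5% of differences of 1 were called, with 7.07% false calls. Each draw changed 200 probe sets, in flooded root only, and gave a probe set the same spread in all 4 groups. The data had 1990 calls and unequal spreads between groups, so these rates need not hold for them.

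Locus numbers in the array's probe table were looked up in RefSeq genes (assembly Gossypium_hirsutum_v2.1). A single gene was listed for 697 probe sets and every locus was found; 46 listed several genes and 23234 none; 324 probe sets of 246 genes (1.35%) had a name other than a locus number. Where a gene had several synonyms the shown symbol was a choice. Upland cotton is a tetraploid with A and D gene copies, and which copy a probe set reads is uncertain.

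Named were the 12 largest called differences each way, with 1 probe set per gene (smallest p), every reversed gene, up to 10 genes called in the same direction, by the smaller of their changes (9 were found; the probe set is that of the class), up to 3 members per list, and the 2 unnamed probe sets at each end. Product descriptions, foreseen for names, were not used here. The comparison, classes and lists were chosen with earlier results of these data known. The symbols that fill each list were written after the annotation was seen. Alternatives covered normalization, variance model, weights, floors, filters, a 2-fold minimum, replicate blocks and each array left out in turn.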

Additional observations from a re-analysis of the deposited data

Results flagged for a closer look

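Root and leaf responded differently, by a limma test of the difference itself with Benjamini-Hochberg adjustment, in 1990 of 23977 probe sets. Among named genes the difference (root change minus leaf change, log2) was positive for MYB5 (4.15), AOX1 (3.92), SusA1 (3.49), ERF7 (3.36), Lea5-D (3.36), ASP3 (2.68), LEGB (2.21), RPS4 (1.98), GOX (1.83), AnnGh1 (1.82), Mn-SOD (1.73) and RPS16 (1.69). It was negative for DFR (-4.73), H6L (-3.34), NIP6.1 (-3.22), MFS (-3.11), EXPA3D (-2.82), cdn1 (-2.46), CRK1 (-2.41), Pel (-2.40), CelA1 (-2.33), GHMYB36 (-2.30), UGD2 (-2.23), Ssh2 (-2.16), FLA6 (-2.15), GLU (-2.11) and E6 (-2.02). Smaller negative differences were those of Rac9 (-1.89), the peroxidase LOC107905931 (-1.86), Rac2 (-1.82), Aux3 (-1.61), ACS1 (-1.47), GID1-4 (-1.27) and BTub3 (-1.05). Of probe sets without a gene name, GhiAffx.5828.1.S1_s_at (7.70), GhiAffx.64116.1.S1_at (7.60), GhiAffx.42527.1.A1_s_at (-5.87) and Ghi.10562.1.S1_at (-5.0) stood at the ends. Tissue and hours of flooding cannot be told apart in any of these. With 2 arrays per group no single array could be tested as standing apart from its group.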

How the results depend on the processing

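Of 1232 recomputed differences of named genes and probe sets, 1021 kept their side of the threshold, 178 lost the call and 33 gained one. No called difference changed sign, while 16 recomputed values of 8 genes without a called difference did (such as XTH, -0.13 to 1.60 with 1 array left out). Leaving out 1 array at a time gave 477 to 5279 called differences, 0 to 447 reversed, 0 to 724 same-way, 408 to 3245 root-specific and 0 to 1147 leaf-specific probe sets. A floor per array at the reporter 95th percentile gave 1179 differences, 38 reversed, 68 same-way, 777 root-specific and 233 leaf-specific. A floor per tissue, chosen after seeing the data, gave 1192, 45, 85, 764 and 303 in the same order. Array weights gave 768 root-specific probe sets and 1 weight per group gave 767. Calls within root and leaf were 1403 and 3032 with array weights and 1399 and 3033 with 1 weight per group. With equal weights they were 2568 and 1262, so the order of the tissues turned round. The cause was not tested. Quantile normalization over all 8 arrays gave 2237 differences, of which 51.1% were more positive in root, against 57.9%. Arrays of the same replicate number did not deviate together (r of 0.036 in root and -0.187 in leaf). With 2 arrays per group this does not show whether or how arrays were paired. With the replicate number as a block, 1512 differences, 60 reversed, 95 same-way and 289 leaf-specific probe sets were called, and with a replicate block within each tissue 1161, 29, 55 and 192. The crossed block in leaf, chosen after seeing the data, gave 1724 differences, 57 reversed and 104 same-way. The number of arrays limits precision, so small responses may remain unseen. In simulated data 1.5% of differences of 1 log2 unit were called, with 200 probe sets changed per draw and equal spread in all groups. The data had 1990 calls and unequal spreads, so this rate need not hold for them. For probe sets under the reporter bound a change may be understated.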
